A study of Ovis aries with 8 samples.

Results

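Transthyretin (TTR) was followed through 8 hypothalami of late-gestation fetal sheep, 1 array per fetus. Among the 15008 probes of the Agilent sheep design, a single probe, A_70_P030191, names TTR in its gene name or description. TTR is 1 of the 1020 genes named on the array, and everything below about TTR rests on 1 probe with 1 spot on each array. The probe was found by that name, but TTR itself was chosen for study with earlier results of these data known. The fetuses came from 4 sets of twins. In each set 1 twin received estradiol-3-sulfate at 1 mg per day into a lateral cerebral ventricle from an osmotic mini-pump, and its co-twin was the control. Controls are described as saline-infused by the treatment protocol and as untreated by the design text, and are called vehicle here. Infusion lasted 7 to 12 days by the design text and 7 to 10 days by the protocol. Fetuses were operated at 120 to 127 days of gestation and the tissue was collected at 130 to 134 days. The RNA had been kept frozen for 7 years before labelling, and each fetus is 1 replicate of its group (n = 4 and n = 4).

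TTR is a secreted carrier of thyroxine that also carries retinol together with retinol-binding protein. In the body it is made mainly by the liver. In the brain its classical source is the epithelium of the choroid plexus, the tissue inside the ventricles that makes cerebrospinal fluid, and TTR messenger RNA is among the most abundant transcripts there. The hypothalamus forms the walls and floor of the third ventricle, and choroid plexus lines the roof of that ventricle.

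The printed stretch shows what was hybridised. It is the first 30 of the 60 bases of the probe, which begins at base 468 of the transcript it was designed on. The probe has 35% G and C, and a stop codon in 2 of its 3 forward reading frames. No run longer than 14 bases, on either strand, was shared with any of the other 15007 probes. The other lines give the first 30 bases of the 2 probes without a gene name whose signal followed TTR most closely over the arrays, since the sequence is their only identity here. No base is set in capitals, because no motif or site was looked for.

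TTR: ggtggactcaaaggatgaaggacaggattt
A_70_P060011: ttggtcaatggctcgtccgcctgaaaagaa
A_70_P044621: taatcaccccatagctttaaaagtcaccat

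TTR differed between the infused fetuses far more than between the controls. Its processed spot intensity, background-subtracted and in arbitrary units, was 194 in estradiol sulfate replicate 1, 2493 in replicate 2, 5351 in replicate 3 and 10069 in replicate 4. In vehicle replicates 1 to 4 it was 1103, 807, 819 and 741. Infused fetus 1 was thus below every control, while the other 3 infused fetuses were above every control. The error that the scanner software attaches to each spot was between 10.0% and 10.6% of its signal, small against these gaps. The spot was well above background on 8 of 8 arrays, was saturated on none and carried no outlier flag. Between 61 and 66 pixels were read per spot, and the local background lay between 53 and 59 units on every array.

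**Figure D1:**
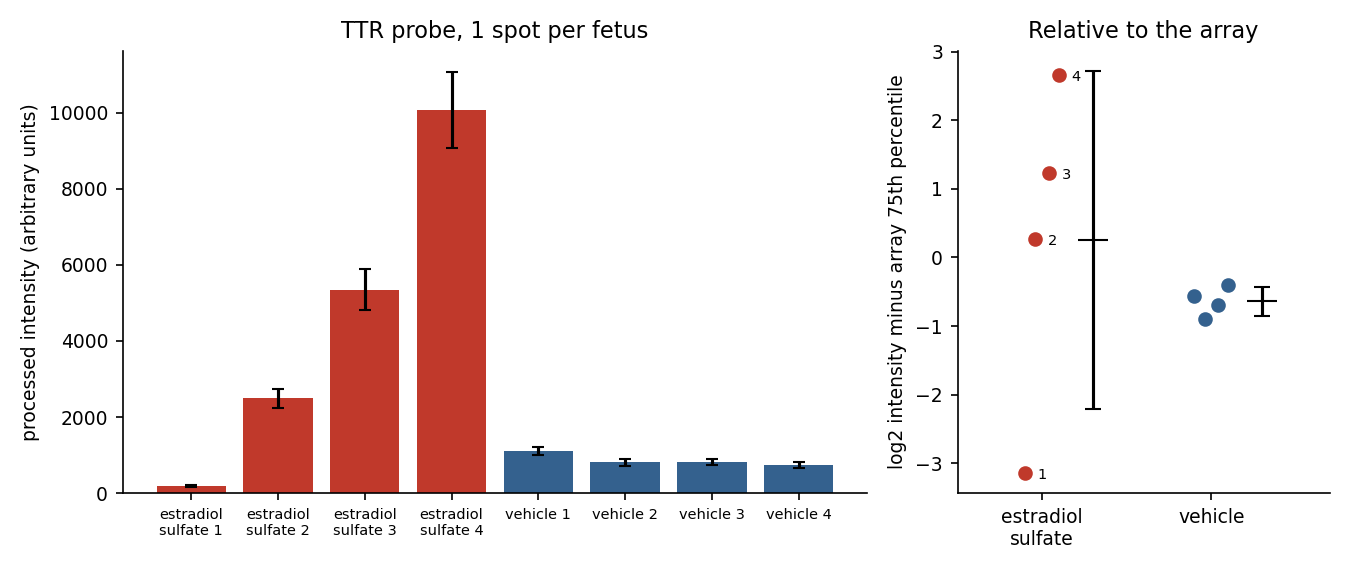
Left, processed intensity of the TTR spot in each fetus on a linear axis, with bars for the scanner software's error of the spot. Right, the same values as log2 minus the 75th percentile of the array, each point 1 fetus (infused replicates numbered), with the mean and SD of each group. Infused replicates 2, 3 and 4 lie above the 4 controls and replicate 1 lies below them.

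The differences remained after each array was set on a common scale. On log2 intensity minus the 75th percentile of the array, TTR was -3.14, 0.27, 1.23 and 2.66 in estradiol sulfate replicates 1 to 4. It was -0.57, -0.90, -0.69 and -0.41 in vehicle replicates 1 to 4. The infused fetuses averaged 0.25 ± 2.47 (SD, n = 4) and the controls -0.64 ± 0.21 (SD, n = 4). From the lowest to the highest fetus the infused group spanned 55.6-fold, and the control group 1.41-fold. The 75th percentiles used for scaling ran from 981.5 to 2282 units over the 8 arrays, a far narrower range than that of TTR among the infused fetuses. The scaling percentile of infused replicate 1 was 1716 and that of replicate 4 was 1597, so the lowest and the highest TTR signal came from arrays of similar brightness. On these arrays 80.8% and 77.0% of probes were well above background. By group the share was 77.0% to 83.1% on the infused arrays and 67.8% to 77.4% on the control arrays. Counts of arrays well above background therefore lean towards the infused group for any dim probe.

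Against the rest of the array this spread was extreme. The SD of TTR in the infused group was the highest among the 9990 probes that were well above background on all 8 arrays. The next probe, which has no gene name, reached 2.46, but it varied almost as much among the controls (SD 2.29). The median of these probes was 0.19 among the infused fetuses and 0.22 among the controls. Among all 11749 probes tested, that is those well above background on at least 4 arrays, 7 had a higher SD in the infused group. These 7 were well above background on 4 to 7 of the arrays, and TSHB and CGA, pituitary hormone subunits, were among them. The controls' SD for TTR was unremarkable, since 57.6% of the probes tested had a higher one. The ratio of the infused to the control SD was 11.8 for TTR and 0.854 at the median of all probes, and 14 probes had a higher ratio than TTR. This comparison was chosen after the values had been seen and is a description, with no test. Under the other 5 scalings tried, the infused SD of TTR was also the highest among the 9990 probes.

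**Figure D2:**
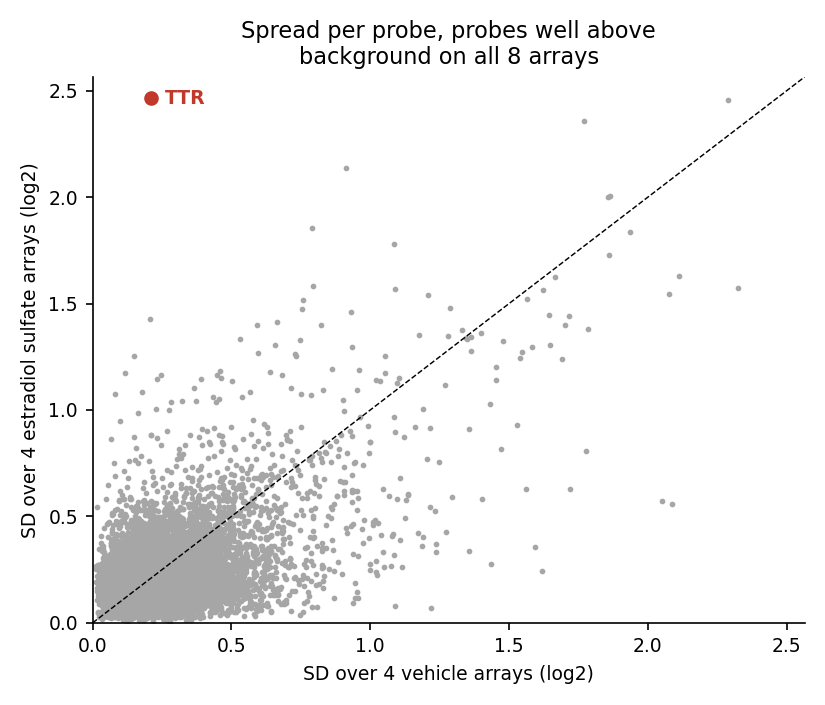
SD of log2 signal over the 4 infused fetuses against the SD over the 4 controls for each of the 9990 probes well above background on all arrays. Each grey point is 1 probe, TTR is red, and the dashed line marks equal SDs. TTR sits at 2.47 on the vertical axis and 0.21 on the horizontal axis, above all other probes.

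Whether the infusion changed the mean level of TTR was asked with limma across all probes tested. TTR was 0.89 higher in the infused group on the log2 scale, with a standard error of 1.00 and a 95% interval from -1.37 to 3.15. As a ratio of geometric means this is 1.86-fold, with an interval from 0.388-fold to 8.88-fold. The difference did not pass limma's test, with an unadjusted limma p of 0.396 and an adjusted p of 0.842 (Benjamini-Hochberg, over all probes tested). A two-sided exact permutation test over the 70 splits of the fetuses into groups of 4 gave p = 0.486, where 0.0286 is the smallest p this test allows. The test splits the fetuses freely, without regard to the twin sets, because the labels do not say which arrays are co-twins. The interval holds no change as well as a more than 8-fold rise, so the mean effect was not measured with useful precision. Limma also takes 1 variance for both groups and draws it towards that of other probes, while the SDs of TTR were 2.47 and 0.21. No probe on the array passed the adjusted threshold of 0.05. Without adjustment 1077 probes (9.17%) had limma p below 0.05, of which 733 (6.24%) were higher and 344 (2.93%) lower after infusion. That split depended on the scaling: with array medians in place of the 75th percentile it was 345 higher and 753 lower, and the median difference of all probes moved from 0.04 to -0.06.

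The estimate turned on individual fetuses. Without infused replicate 1 the difference was 2.02 (SE 0.48), a 4.07-fold higher geometric mean, with 3 of 3 remaining infused fetuses above every control. Its unadjusted limma p was then 0.00266, and its adjusted p of 0.580 still missed the threshold. The SDs left were 1.20 and 0.21, while limma takes 1 variance for both groups, so this SE and p are only rough for TTR. Replicates 2 to 4 were all above every control for 4.93% of the probes tested, so this pattern was not rare on the array. In the same limma fit 4.91% of the probes were higher with an unadjusted p below 0.05, and 48 probes had a smaller p than TTR. Without infused replicate 4, the fetus with the highest TTR, the difference was only 0.09 (SE 0.88). Without infused replicate 3 it was 0.57, and without replicate 2 it was 0.89. Leaving out any 1 control moved it only between 0.81 and 0.97. Infused replicate 1 was the array with the lowest signal for 12.7% of all probes tested and vehicle replicate 4 for 28.8%, so replicate 1 was not low throughout. The combination seen for TTR, lowest in infused replicate 1 and highest in infused replicate 4, held for 1.05% of the probes.

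**Figure D3:**
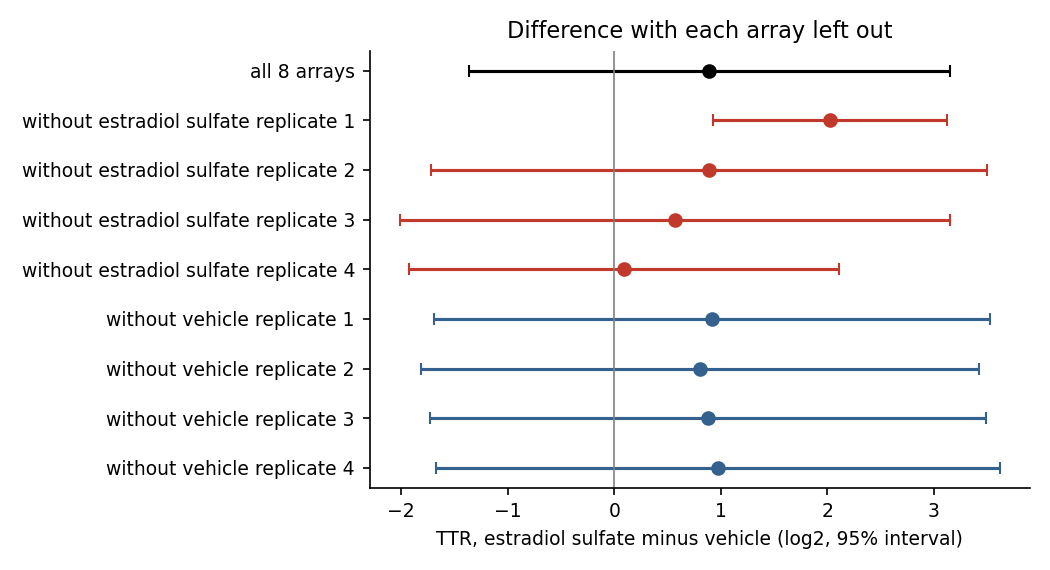
Difference in TTR between infused and control fetuses (log2) with its 95% interval from limma, for all 8 arrays (black), with each infused fetus left out (red) and with each control left out (blue). The interval lies above 0 only without infused replicate 1, and the point lies closest to 0, at 0.09, without infused replicate 4. The intervals take 1 variance for both groups, although the infused fetuses spread far more.

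The choroid plexus label could be set against few other genes. Of 46 genes of a choroid plexus list, 8 were named on the array, TTR included, and 5 others passed the filter. The channel AQP1, which carries water across the apical membrane of the choroid epithelium, was not well above background on 8 of 8 arrays with one probe and on 7 of 8 with the other. The tight junction gene CLDN2, typical of that epithelium, was not well above background on any array with either of its 2 probes. Other genes commonly used to mark the epithelium, among them KL, FOLR1, KCNJ13, CLIC6 and OTX2, carried no name on the array and were not analysed here. In bulk tissue fewer cells of a type and less RNA per cell cannot be told apart.

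IGF2, the growth factor that choroid epithelium and meninges make in quantity, came closest to a similar size of change. Its brightest probe read -1.54, 0.72, 0.93 and -1.10 in infused replicates 1 to 4 and -1.61, -3.11, -1.76 and -0.54 in the controls. Infused replicates 2 and 3 were above every control, while replicates 1 and 4 fell among them. The IGF2 difference of 1.51 (SE 0.67) had an unadjusted limma p of 0.0496 and an adjusted p of 0.54. The second, dimmer IGF2 probe, well above background in 4 of 4 infused fetuses and in 1 of 4 controls, differed by 0.88 (SE 0.27, limma adjusted p = 0.45). Its values of -5.37, -4.19, -4.02 and -4.73 put infused replicates 2 to 4 above every control, so the 2 probes disagree on replicate 4, the fetus with the highest TTR. On both, replicate 4 was below replicates 2 and 3.

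The remaining choroid plexus genes differed less between fetuses. IGFBP2, a binding protein for the insulin-like growth factors, read 2.75, 2.63, 2.57 and 2.41 in the infused fetuses and 2.50, 2.86, 2.29 and 3.54 in the controls. Its range over the 8 arrays was 1.25, against 5.80 for TTR. ATP1B1, a subunit of the sodium pump, lay between 5.03 and 5.30 in the infused fetuses and between 5.03 and 5.42 in the controls. CLDN3, a claudin, read -2.65, -2.82, -2.39 and -2.40 in the infused fetuses and between -3.21 and -2.73 in the controls. Its difference of 0.35 (SE 0.15) had a limma adjusted p of 0.54, and its other 2 probes gave 0.26 and -0.25. CLDN1, another claudin, was well above background on 4 arrays with its brighter probe and ordered the infused fetuses opposite to TTR, at -4.66, -5.19, -5.56 and -5.82. Its dimmer probe did not show that order, at -4.98, -5.23, -5.21 and -5.04, above every control (-6.16 to -5.40). That probe, well above background in 4 of 4 infused fetuses and in 1 of 4 controls, differed by 0.69 (SE 0.17). Its limma p was 0.00248 unadjusted and 0.41 adjusted, while the brighter probe differed by 0.23 (SE 0.25). Over the 5 genes, each with its brightest probe, 3 differences were above 0 and 2 below, with a median of 0.23 against 0.04 for all probes. Of all probes tested, 6832 differed above 0 and 4917 below. At an unadjusted limma p below 0.05, 2 of the 5 genes were higher, beside 6.24% of all probes, and 0 passed after adjustment. The summed signal of the 5 genes, in units of the array's 75th percentile, was 38.6 to 47.5 in the infused fetuses and 38.8 to 55.4 in the controls. ATP1B1 alone made up 77.5% to 86.3% of that sum. Without it the sum was at most 8.04 in the infused fetuses, lowest in replicate 4, and 5.36 to 12.5 in the controls. That remainder was mostly IGFBP2, the brightest of the genes left, so it largely repeats the IGFBP2 values above. Pearson's r with TTR over the 8 arrays was 0.43 for IGF2, 0.44 for CLDN3, -0.16 for ATP1B1, -0.26 for IGFBP2 and -0.68 for CLDN1.

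**Figure D4:**
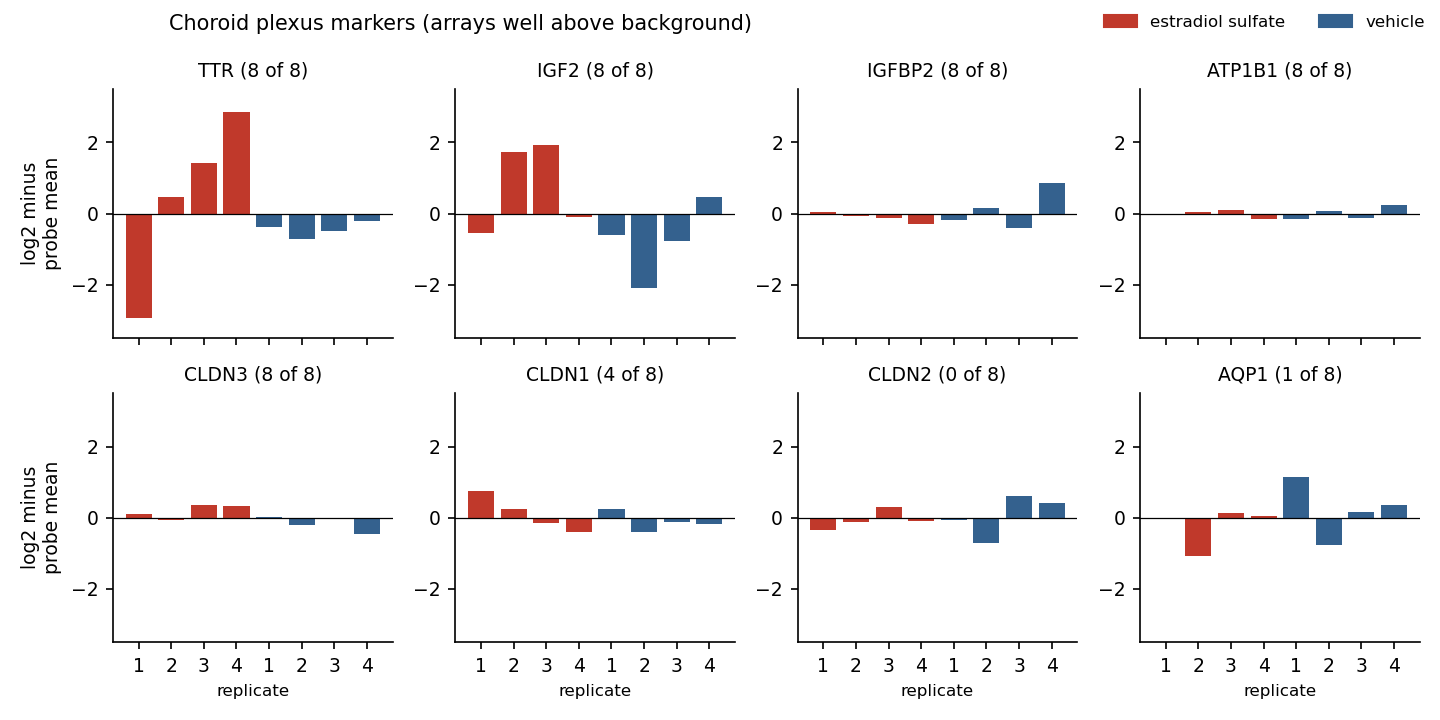
Log2 signal of TTR, the other 5 choroid plexus genes that passed the filter (brightest probe), and CLDN2 and AQP1 (first probe each), as the deviation from the mean of the 8 arrays, with all panels on 1 scale. Red bars are infused replicates 1 to 4 and blue bars vehicle replicates 1 to 4, and the panel titles give on how many arrays the probe was well above background. The bars of TTR span 5.80, and of the genes shown only those of IGF2 come near.

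Genes that share the ligands of TTR were followed next. Of 30 genes of thyroid hormone transport and action, 11 were named and 7 besides TTR passed the filter. TSHB, the specific subunit of thyrotropin, read -8.12, -2.41, -4.35 and -1.84 in the infused fetuses and -5.00, -7.52, -7.49 and -2.82 in the controls. It was lowest in infused replicate 1 and highest in replicate 4, as TTR was, but the controls varied too, and 3 infused and 2 control arrays were well above background. CGA, the subunit that thyrotropin shares with the gonadotropins, read -4.55, -0.12, -2.63 and 0.55 in the infused fetuses and -2.83, -5.38, -5.46 and -0.34 in the controls with its brighter probe. Both peaked in infused replicate 4 and were low in replicate 1, and both were also high in vehicle replicate 4, where TTR was not. TRHR, the receptor of thyrotropin-releasing hormone, read -4.43, -2.73, -3.30 and -4.18 in the infused fetuses, so that it was low in replicate 4. THRB, a thyroid hormone receptor, stayed between -3.21 and -2.85 in the infused fetuses and between -3.48 and -3.10 in the controls.

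The other members of the thyroid hormone group varied less. HR, a corepressor of thyroid hormone receptors, lay between 0.23 and 0.61 in the infused fetuses and between 0.47 and 0.68 in the controls. SLC7A5, a subunit of an amino acid transporter that also takes up thyroid hormone, lay between -4.45 and -3.88 and between -4.76 and -3.85. ALB, encoding albumin, another carrier of thyroxine in plasma, was -2.08, -2.16, -1.25 and -1.15 in the infused fetuses and -0.99, -1.13, -1.25 and -0.51 in the controls. Its difference of -0.69 (SE 0.27) had an unadjusted limma p of 0.0302 and an adjusted p of 0.52. SERPINA7, which encodes thyroxine-binding globulin, was not well above background on any array, while THRA and TSHR were so on 2 and 3 arrays and were not tested. Of the 7 tested, 5 differences were above 0 and 2 below, with a median of 0.20, beside 6832 above and 4917 below for all probes tested. At an unadjusted limma p below 0.05, 1 was lower and 0 were higher, beside 2.93% and 6.24% of all probes, and 0 passed after adjustment. Pearson's r with TTR ran from -0.51 for THRB to 0.77 for TSHB.

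For retinol, the other ligand system, the array offered little. Of 34 genes of retinoid transport and action only ALDH1A1, a retinaldehyde dehydrogenase, was named and passed. It read -1.63, 0.20, -0.07 and -1.18 in the infused fetuses and -1.29, -1.26, -0.95 and -0.28 in the controls. Infused replicates 2 and 3 were above every control and replicates 1 and 4 were not (r with TTR 0.42).

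The named genes whose signal followed TTR most closely were then ranked by Pearson's r over the 8 arrays, among 802 named genes. These r values are descriptions over 8 arrays that share 1 slide, and carry no p. Only 2 genes had an r above 0.8, and 17 above 0.7. The highest was that of CR2, a complement receptor of B cells, with r = 0.90 and Spearman's rho = 0.74. CR2 read -7.83, -6.05, -5.40 and -4.81 in the infused fetuses and -5.83, -5.97, -7.16 and -6.25 in the controls, and was well above background on only 5 arrays. TAC1, which encodes the precursor of substance P, followed with r = 0.86 and rho = 0.98. TAC1 was bright on all 8 arrays, at 2.16, 2.62, 2.68 and 2.73 in the infused fetuses and 2.25, 2.14, 2.23 and 2.43 in the controls. Its order of the fetuses was nearly that of TTR, but its whole range was 0.59 against 5.80 for TTR.

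The other 10 of the 12 closest were LOC100101238 (listed as regakine 1-like, r = 0.80), PCNA (0.79), CYP2J (0.79), IRF1 (0.78), CXCR4 (0.78), TSHB (0.77), FZD2 (0.77), IL1B (0.76), SST (0.75) and CRYBB3 (0.74). PCNA is the sliding clamp of DNA polymerase, IRF1 an interferon-responsive transcription factor, CXCR4 a chemokine receptor, FZD2 a Wnt receptor, IL1B a cytokine and CRYBB3 a lens crystallin. SST, encoding somatostatin, read 1.98, 4.21, 3.92 and 3.99 in the infused fetuses and 4.03, 3.52, 3.65 and 4.10 in the controls. Its r therefore came from infused replicate 1 alone being low, and it was 0.36 without that fetus. PCNA read -0.79, -0.21, -0.09 and -0.19 in the infused fetuses and lay between -0.36 and -0.18 in the controls, again low in replicate 1 alone. CYP2J, a cytochrome P450, showed the opposite picture, at -1.12, -1.01, -0.93 and -0.59 in the infused fetuses and -1.24 to -1.10 in the controls, and its r rose to 0.95 without replicate 1. Of the 12, 8 had their lowest value in infused replicate 1 and 9 their highest in infused replicate 4. Over all probes tested these shares were 12.7% and 13.6%. TTR has its own extremes in these fetuses, so picking genes by r favours such counts, and they are no separate result.

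Few of these relations outlived the fetuses at the ends. Without infused replicates 1 and 4, the 2 arrays farthest from the median of TTR, r over the remaining 6 arrays was 0.93 for TAC1 and 0.83 for CYP2J. It was 0.67 for PCNA, 0.59 for CR2, 0.53 for TSHB, 0.45 for SST and 0.38 for IL1B. For FZD2, IRF1, LOC100101238, CRYBB3 and CXCR4 it was 0.31, 0.25, 0.19, 0.16 and -0.01, so that those relations rested on the extreme fetuses. With the mean of each group taken out first, r was 0.91 for TAC1, 0.90 for CR2 and 0.87 for SST. None of the 12 passed the group test, and their limma adjusted p values ran from 0.62 for TAC1 to 1.00 for FZD2.

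At the other end, the 6 genes with the lowest r were YWHAH (-0.79), ARL1 (-0.79), IGFBP3 (-0.78), GUCY1B1 (-0.78), ODC1 (-0.77) and PDXK (-0.77). ODC1, the first enzyme of polyamine synthesis, ordered the infused fetuses in reverse of TTR, at 2.10, 1.65, 1.52 and 0.97, against 1.79, 1.71, 1.44 and 1.10 in the controls. PDXK, pyridoxal kinase, read 1.03 in infused replicate 1 and 0.27 to 0.37 in the other infused fetuses. YWHAH, a 14-3-3 protein, GUCY1B1, a subunit of soluble guanylate cyclase, and ARL1, a GTPase of the Golgi, had ranges of 0.48, 0.61 and 0.52. IGFBP3, a binding protein of insulin-like growth factors, had a range of 0.62.

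**Figure D5:**
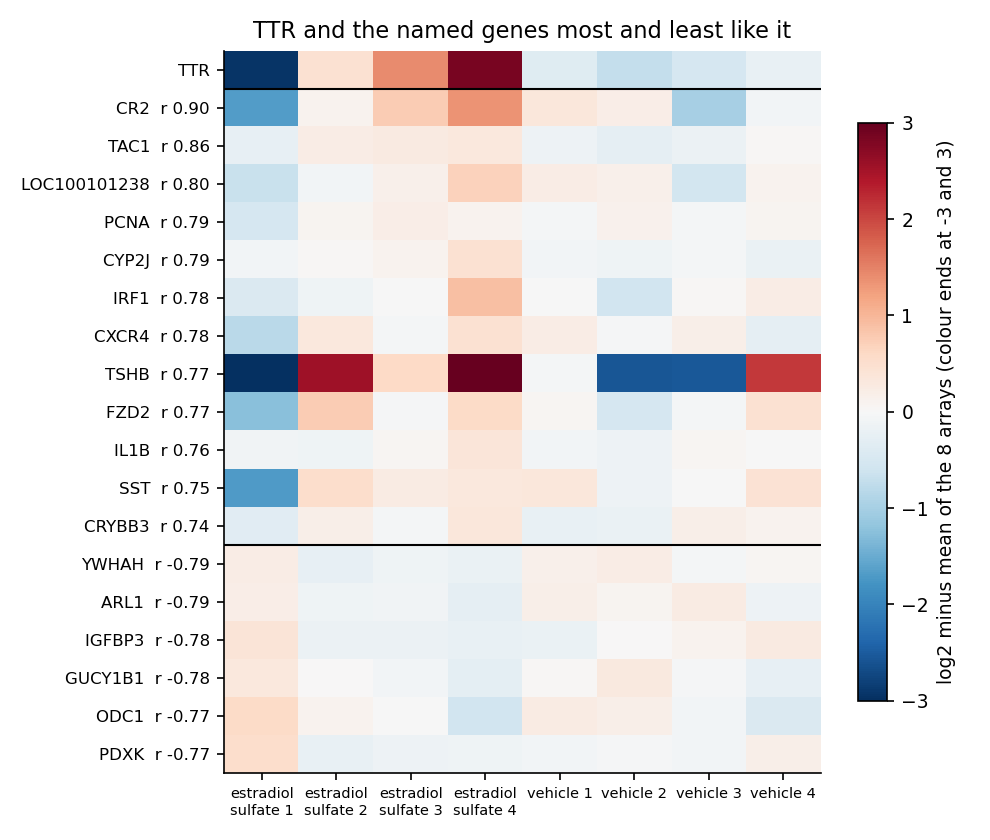
Log2 signal of TTR (top row), of the 12 named genes with the highest Pearson's r with it and of the 6 with the lowest, as the deviation from each gene's mean over the 8 arrays, 1 column per fetus. Colours end at -3 and 3, and r is given beside each name. TSHB alone among the 12 has a range, 6.28, as wide as that of TTR, and the others are paler.

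The order of TTR over the fetuses was found in other probes, but seldom its size. Of 239 probes tested with an r above 0.7, 215 were well above background on all 8 arrays, and the widest range among those was 2.23, that of SST. Just 2 of the 239 had a range at least as wide as TTR, TSHB and an unnamed probe, and neither was well above background on all arrays. Over all probes tested, 8 had an r above 0.9, of which 7 had no name and 1 was CR2. The 2 closest unnamed probes, printed above, read -2.95, -2.50, -2.50 and -2.28 (A_70_P060011) and -4.20, -2.96, -2.85 and -2.51 (A_70_P044621) in the infused fetuses. In the controls they lay between -2.84 and -2.61 and between -3.62 and -2.90. Both were lowest in infused replicate 1 and highest in infused replicate 4, as TTR was, with ranges of 0.67 and 1.68.

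Marker lists of other cells that a hypothalamic block can hold were read beside TTR. Of 24 hypothalamic genes, 13 were named and passed the filter, among them NPY, POMC, AGRP, OXT and SST. Passing the filter does not check how the tissue block was cut. All 13 had an r with TTR above 0 (median 0.33, against 0.00 for all probes), beside 5917 of the 11748 other probes tested. Of the 13, 4 were lowest in infused replicate 1, beside 12.7% of all probes tested. Infused replicate 1 was below every control for 5 of them, above every control for 2 and within the range of the controls for 6. NPY, an appetite peptide, read 1.12, 2.39, 1.49 and 0.78 in the infused fetuses and 0.62, -0.83, -0.77 and 0.33 in the controls, with an adjusted limma p of 0.43. AGRP, another appetite peptide, read -0.20, 1.28, 0.48 and -2.03 against -0.56, -5.31, -5.67 and -3.57. NPY and AGRP were therefore above every control in infused replicate 1, where SST was below every control. The summed signal of the 13 was lowest in infused replicate 1, at 18.6, against 40.3 to 49.6 in the other infused fetuses and 27.2 to 42.3 in the controls. SST made up 21.2% to 46.4% of that sum. Without SST it was 14.7 in infused replicate 1, 24.4 to 31.1 in the other infused fetuses and 15.7 to 26.0 in the controls. The part of the tissue's make-up in the TTR result was not tested.

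Blood markers followed TTR in part. HBB, encoding beta globin, read 1.77, 3.06, 3.09 and 3.89 in the infused fetuses and 1.66, 3.17, 1.84 and 3.53 in the controls (r with TTR 0.70). The dimmer HBB probe, also well above background on 8 arrays, had an r of 0.38. It read -0.18, 2.30, 0.25 and 2.00 in the infused fetuses and was highest in vehicle replicate 4, at 2.88. AHSP, the chaperone of alpha globin, read -5.30, -5.56, -4.08 and -2.71 in the infused fetuses and -5.29, -6.56, -4.25 and -4.80 in the controls. The summed signal of the 2 erythroid genes was 3.44 to 14.99 in the infused fetuses and 3.20 to 11.6 in the controls. Among the controls it spanned 3.63-fold while TTR spanned 1.41-fold, and the part of blood in the TTR result was not tested.

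Liver plasma protein genes were read because the liver is the main source of TTR in the body. Of 6 tested, 2 differences were above 0 and 4 below, with a median of -0.22, beside 6832 above and 4917 below for all probes tested. All 6 had an r with TTR above 0 (median 0.36), beside 5917 of the 11748 other probes tested. Of the 6, 3 were lowest in infused replicate 1, beside 12.7% of all probes tested. TF, transferrin, the brightest of them, read 4.59, 4.92, 5.83 and 5.62 in the infused fetuses and 5.27, 5.82, 6.32 and 5.27 in the controls. In the pituitary list the median difference over 6 genes was 0.84. Of these genes 4 had an r with TTR above 0 (median over the list 0.38), beside the same 5917 of 11748 probes. Besides TSHB and CGA above, GHRHR, the receptor of growth hormone-releasing hormone, differed by 0.41 (limma adjusted p = 0.62) and LHB, the luteinizing hormone subunit and the brightest of the list, by -0.05.

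The other lists are given by their median and by their members of smallest p and brightest signal. Of 10 meningeal and fibroblast genes 9 differed above 0 (median 0.27), beside 6832 above and 4917 below for all probes tested. At an unadjusted limma p below 0.05, 3 were higher and 1 was lower, beside 6.24% and 2.93% of all probes. Over all probes, 77.0% to 83.1% were well above background on the infused arrays and 67.8% to 77.4% on the control arrays. COL6A1, a collagen chain, was well above background in 4 of 4 infused fetuses and in 0 of 4 controls with its brighter probe. With its dimmer probe COL6A1 was so on 1 array only, and the brighter stands for it. COL3A1, another collagen chain among the 3 higher genes, was likewise well above background in 4 of 4 infused fetuses and in 0 of 4 controls. Both passed the filter only through the infused group, so the count of 3 is not independent of the filter. The COL6A1 signal was at least 1.17-fold higher after infusion (limma adjusted p = 0.37), and that of COL3A1 at least 1.13-fold (limma adjusted p = 0.52). The bound sets the infused mean against the controls' own signal or, where higher, the lowest signal well above background on that array. PTGDS, a prostaglandin D synthase of meninges and choroid plexus, lay between 5.65 and 5.68 in the infused fetuses and between 5.69 and 6.36 in the controls, and differed by -0.35. Over 9 endothelial genes the median was 0.20. FLT1, a receptor of vascular endothelial growth factor, was also well above background in the infused fetuses alone with its brightest probe. For that probe the controls' own signal set the bound, so 2.00-fold is the plain ratio of geometric means. Its difference was 1.00 (SE 0.26, limma adjusted p = 0.43). Another FLT1 probe, well above background in 4 of 4 infused fetuses and in 1 of 4 controls, differed by 0.64. The remaining FLT1 probes were not tested. ABCG2, an efflux pump, differed by -0.31.

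Glial, neuronal and reference genes gave medians of 0.12 over 8 microglial and leukocyte genes, 0.32 over 5 astrocyte and oligodendrocyte genes, 0.30 over 4 neuronal genes, 0.13 over the 2 ependymal and tanycyte genes, and -0.08 over 11 reference genes. FCER1G, an immune receptor subunit, differed by -0.44, SLC1A2, a glutamate transporter of astrocytes, by 0.63 and GRIN1, a glutamate receptor subunit, by 0.59. GRIA2, another such subunit, differed by 0.33, RPS25, a ribosomal protein, by -0.47 and UBB, a ubiquitin gene, by -0.29. Their limma adjusted p values ran from 0.43 for RPS25 to 0.69 for GRIA2. The dimmer RPS25 probes disagreed in direction, at -0.15, 0.69 and 0.44 (limma adjusted p = 0.83, 0.56 and 0.62). AQP4, the astrocyte and ependymal water channel, read 4.29, 5.26, 5.40 and 5.36 in the infused fetuses and 3.77, 5.21, 5.10 and 4.93 in the controls. VIM, vimentin, stayed between 5.36 and 5.72 on all arrays. No member of any of these lists passed limma's adjusted threshold of 0.05.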

How the data were processed

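Per the file headers, the 1-colour (Cy3) scans were read with Agilent Feature Extraction 10.1.1.1. Its processed intensity, as deposited, is corrected for background within each array and not scaled between arrays. The authors' deposited log2 table is that intensity on the log2 scale with a fixed value taken off each array (99.7% of probes or more matched to 0.001). It served as an alternative, and how that value was set is unknown.

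Control spots and spots flagged as outliers were dropped, spots of a probe averaged, and the array's 75th percentile was subtracted from log2 intensity. Probes well above background on at least 4 of 8 arrays were tested (11749 of 15008). Groups were compared with limma 3.58.1 (R 4.3.3, group as the only term, two-sided, Benjamini-Hochberg over all probes tested). The procedure was checked on simulated data in which both groups had each probe's vehicle SD. That check therefore does not cover groups with SDs as unequal as those of TTR. For arrays, their number, 4 per group, limits the precision. Correlations between arrays of a group ran from 0.978 to 0.991.

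Names came from the array design, with symbols brought up to date from RefSeq (assembly ARS-UI_Ramb_v3.0, no coordinates taken). Of all probes 1683 (11.2%) could be named, for 1020 genes. For a gene with several probes, the brightest that passed stands for it. The text names TTR, the 12 named genes with the highest and the 6 with the lowest Pearson's r with it, all tested members of the choroid plexus, thyroid hormone and retinoid lists, and of each other list the members with the smallest p and the brightest signal. AGRP was named after its values were seen. TTR, the lists and the tests were chosen with earlier results of these data known.

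All arrays lay on 1 slide, infused fetuses in the first column and controls in the second, and the effects of column and infusion cannot be told apart. Replicate numbers equal the slide row. The labels do not say that equal numbers mark co-twins, and the number was left out of the model.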

Additional observations from a re-analysis of the deposited data

Results flagged for a closer look

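Among the 31 genes ranked closest to or farthest from TTR or belonging to its choroid plexus, thyroid hormone and retinoid lists, 62 groups of 4 fetuses were screened for a single fetus far from the other 3, meaning a gap to the nearest of them, as a share of the group's range, above Dixon's 95% critical value. Chance alone flags about 1 group in 20. TTR itself was not among them: the gap below infused replicate 1 was 0.588 of the group's range, because the other 3 infused fetuses were also spread widely.

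Infused replicate 1 stood apart for 4 genes. SST was 1.98 there against 3.92 to 4.21 in the other infused fetuses. IGFBP3 was -3.77 against -4.40 to -4.35, PDXK was 1.03 against 0.27 to 0.37, and THRB was -2.85 against -3.21 to -3.16. SST, IGFBP3 and PDXK had been picked for their likeness or unlikeness to TTR, which is itself lowest in that fetus. LOC100101238 was -3.80 in vehicle replicate 3 against -3.13 to -3.01 in the other controls.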

How the results depend on the processing

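The TTR difference stayed above 0 and missed the adjusted threshold in all 22 alternatives: it was 0.79 to 0.94 under the 10 other scalings, filters and models, and 0.09 to 2.05 with fetuses left out. With the replicate number as a block it was 0.89 (unadjusted limma p of 0.320). Same-numbered arrays deviated together with r from 0.01 to 0.27, and 6 of 8 arrays correlated best with their own number, a hint of pairing from the data, not the design. With 1 of the 4 pairs near 0, the numbers were not taken as pairs. The block moved the count of probes at an unadjusted p below 0.05 from 1077 to 1158. That count was 692 with quantile normalization and 2089 with no filter on dim probes, and 459 to 1319 with fetuses left out (695 to 1291 with 1 fetus, the lowest without infused replicate 2). By direction, quantile normalization gave 396 probes higher and 296 lower, cyclic loess 448 and 338, normexp 432 and 328, the authors' log2 values 344 and 760, and no filter 904 and 1185. The choroid plexus median was -0.0091 with no filter, which adds AQP1 and CLDN2, and 0.02 to 0.35 with fetuses left out, the lowest without infused replicate 1. Of the 12 genes closest to TTR, 7 stayed with normexp, 3 with Spearman's rho and 7 with group means removed. With 1 array left out 3 to 11 stayed: 3 without infused replicate 1, 3 without infused replicate 4, 7 without infused replicate 3 and 4 without vehicle replicate 4. The ratio of SDs, added after seeing the data, was 9.55 to 13.2 under other scalings and 5.75 to 17.4 with fetuses left out, 5.75 being without infused replicate 1. Another TTR probe could not be tried, since the array names 1. Where causes are not stated, they were not tested. Dim probes, CR2 and TSHB among them, are limited by their signal over background.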
